A study of Homo sapiens with 12 samples.

Results

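Mitochondrial ribosomal protein genes were followed across 12 libraries of HCT116 cells. They were taken as the protein-coding genes whose symbol is MRPL or MRPS followed by a number, the names used for proteins of the large and the small subunit. The annotation (GENCODE release 29 on GRCh38) held 78 such genes, and 77 of them had a row among the 63677 identifiers of the deposited table. The identifier of MRPL45 had no row and was not analysed here. Of the 77 genes, 74 entered the tests, out of 15334 genes tested in all.

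The mitochondrial ribosome is a separate ribosome inside the organelle that makes only the few respiratory chain proteins encoded by mitochondrial DNA. Its RNAs come from mitochondrial DNA, whereas its proteins are encoded in the nucleus, translated in the cytosol and imported. Some of these proteins have counterparts in bacterial ribosomes, and others are found only in mitochondrial ribosomes. The colon epithelium and cancers arising from it use it for respiration, as other respiring cells do.

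HCT116, an established cell line, comes from a human colorectal carcinoma. Per the labels, the cells carried 1 of 4 constructs, the fluorescent protein mCherry as control, the peptide CR3, which the submitters describe as disturbing condensates, or its variants named scramble and reverse. Poly(A) RNA was sequenced from 3 libraries of each. All 4 groups were grown with 10% FCS and received doxycycline, given in the labels as 1 ug/ul and as 48 before RNA extraction without a unit, so no group shows cells without the drug. The series text speaks of clones, and an effect of a construct cannot be told apart from a difference between clones. Nothing says that libraries of a group came from separate cultures, so p-values measure only the spread between these libraries.

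Libraries held 17431529 to 23565760 reads in genes, with a median of 21830 genes having a read. A tested member had a median of 1042 reads in a library (lowest 24, highest 3810). Levels below are normalized reads, which are reads divided by the size factor of the library, and differences are log2 fold changes (± SE) of normalized reads + 1 from 1 limma model of all 12 libraries. A gene was called at a Benjamini-Hochberg adjusted p under 0.05 over all genes tested. The labelled tissue is colon, and 7 of 14 intestinal epithelial markers exceeded 10 normalized reads in each group, summing to 45710 to 52970 in CR3 and 55190 to 62830 elsewhere, with TFF3 at 0 throughout. Markers of other cell types moved with CR3. Of 17 embryonic kidney and neuron-like markers, 13 exceeded 10 reads in CR3 and 4 or 5 elsewhere (sums 3735 to 4334 against 1405 to 1750). Of 12 mesenchymal markers, 6 did so in CR3 and 4 elsewhere (2932 to 3278 against 1315 to 1693). Of 8 blood markers, 3 did so in CR3 and 1 elsewhere, with PTPRC at 0 in every group and nearly all of the CR3 sum from LAPTM5 (1326). CDH2 is on both the kidney and neuron-like list and the mesenchymal list, so it enters both sums. The part of these marker lists in the results below was not tested. In bulk RNA, fewer cells of a type and less RNA per cell cannot be told apart.

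CR3 libraries had lower levels of many mitochondrial ribosomal protein genes than each other group, by small amounts. Against scramble, limma called 45 of 74 members lower, where 18.8% of all genes tested were called lower, and 1 higher (all genes 19.1%). Against reverse, 33 were lower (all genes 16.8%), and against mCherry 17 were lower (all genes 14.5%) and 1 higher (all genes 14.1%). The members' median log2 fold change was -0.09 (mCherry), -0.22 (scramble) and -0.16 (reverse), beside 0.00, 0.01 and 0.01 over all genes. These 3 comparisons share the CR3 libraries and are not independent of one another.

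The same 17 members were called lower against every other group, 23.0% of those tested, beside 11.3% of all genes. They are MRPL2, MRPL3, MRPL10, MRPL11, MRPL13, MRPL18, MRPL24, MRPL47, MRPL51, MRPL58, MRPS2, MRPS18B, MRPS22, MRPS23, MRPS27, MRPS30 and MRPS34. Called higher against every group was 1 member, MRPL55 (all genes 11.0%). A further 15 were lower against both scramble and reverse, 13 were lower against scramble alone and MRPS31 was lower against reverse alone. MRPS14 was higher against reverse (members higher in that comparison 2, all genes 17.0%). The remaining 26 members were called in none of the 3 comparisons. No share of all genes with these partial patterns is given, so these counts only sort the members. Without CR3 replicate 3, the count lower against every group was 10, with no share of all genes given for it. With each of the 12 libraries left out in turn, 8 of the 17 were called lower against every group each time (MRPL11, MRPL18, MRPL51, MRPL58, MRPS18B, MRPS22, MRPS27 and MRPS30). The call against every group was lost in 10 of the 12 for MRPL10, in 9 for MRPL47, in 8 for MRPL2, in 4 for MRPL24, in 3 each for MRPL13, MRPS23 and MRPS34, and in 1 each for MRPL3 and MRPS2. With library size alone as the scale, the median over all genes was 0.10 in CR3 against scramble, and lower and higher calls among members were 6 and 5 against mCherry (all genes 8.16% and 23.2%), 27 and 4 against scramble (11.6% and 29.2%) and 14 and 5 against reverse (10.0% and 26.3%). The 6 lower against mCherry were 8.11% of members, near the share of all genes. On that scale MRPL51 and MRPS30 were not called against mCherry (limma adjusted p 0.137 and 0.0946) or reverse (0.132 and 0.105). Relative to the median of all genes, the members' median was then -0.09, -0.23 and -0.16.

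**Figure D1:**
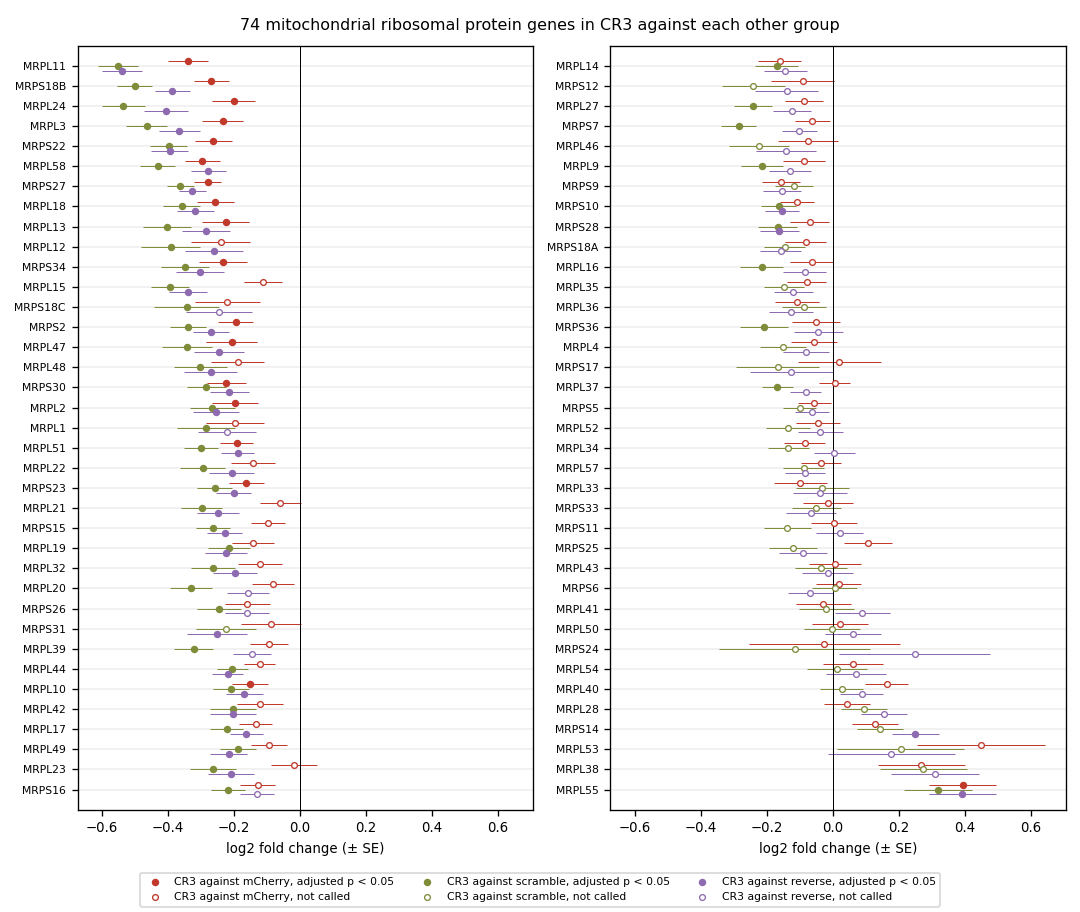
Log2 fold change (horizontal axis, ± SE) of each of the 74 genes tested in CR3 against mCherry (red), scramble (green) and reverse (purple), with filled points at an adjusted p under 0.05 and genes ordered by their mean difference. MRPL11 lies at the lower end with -0.34, -0.55 and -0.54, and MRPL55 at the upper end with 0.39, 0.32 and 0.39.

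Among large-subunit proteins with a bacterial counterpart, 8 of 29 (27.6%) were lower against every group (all genes 11.3%). Of the same 29, 1 (3.45%) was higher (all genes 11.0%). MRPL11, a protein of the stalk base where translation factors dock, had the largest decrease by the smallest of its 3 differences. Its normalized reads were 861, 824 and 916 in CR3, 1171, 1074 and 1049 in mCherry, 1253, 1213 and 1344 in scramble, and 1252, 1306 and 1222 in reverse. Every CR3 library lay below all 9 others, an order that 25 of 74 members (33.8%) had, beside 13.5% of all genes. The differences were -0.34 ± 0.061 against mCherry (limma adjusted p 0.000406), -0.55 ± 0.061 against scramble (1.75e-06) and -0.54 ± 0.061 against reverse (2.48e-06).

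MRPL3, which lies near the peptidyl transferase centre, was at 2259, 2382 and 2149 in CR3 and at 2501, 2516 and 2988 in mCherry. Scramble had 3124, 3064 and 3173, and reverse 3014, 2941 and 2788. CR3 was again below all others, but the third mCherry library stood near reverse and away from the other two. Of the 17 members lower against every group, 9 had their highest mCherry value in that library. MRPL3 differed by -0.23 ± 0.062 from mCherry (limma adjusted p 0.00896), by -0.46 from scramble and by -0.37 from reverse. The difference from mCherry was -0.15 (0.0324) without mCherry replicate 3, and -0.20 and not called without CR3 replicate 3 (0.0602). That call was also lost with library size alone (0.0839) or with only the libraries of these groups (0.0554).

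MRPL24, one of the proteins that join the large subunit early, was at 594, 611 and 632 in CR3, at 732, 733 and 650 in mCherry, at 935, 828 and 904 in scramble and at 797, 819 and 819 in reverse. The third mCherry library came closest to CR3, without overlap. The difference was -0.20 ± 0.066 against mCherry (limma adjusted p 0.0299) and -0.54 and -0.41 against scramble and reverse. The call against mCherry was lost without mCherry replicate 1 or 2 (adjusted p 0.105 and 0.111), without CR3 replicate 1 or 2 (0.0868 and 0.0597), and with other scalings or only the libraries of these groups. MRPL18, a protein of the central protuberance, fell from 1488 ± 83.2 in mCherry to 1243 ± 29.8 in CR3 (SD, n = 3), with log2 fold changes of -0.26, -0.36 and -0.32. MRPL13 fell by 0.23, 0.40 and 0.28, and MRPL47, found near the exit of the peptide tunnel, by 0.21, 0.34 and 0.24 on the log2 scale. For MRPL47 the libraries of CR3 and mCherry overlapped, and its limma adjusted p there was 0.0495. Without mCherry replicate 3 the differences from mCherry were -0.15 for MRPL13 and -0.13 for MRPL47, and neither was called (adjusted p 0.108 and 0.2). Both calls were also lost without CR3 replicate 1 (0.106 and 0.18) or CR3 replicate 3 (0.107 and 0.154). That of MRPL47 was lost in most other alternatives too, and its call against reverse without CR3 replicate 1, CR3 replicate 3 or reverse replicate 1 (0.09, 0.075 and 0.102).

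MRPL55, another bacterial-type protein of the large subunit, went the other way. Its normalized reads were 476, 424 and 469 in CR3, 378, 386 and 285 in mCherry, 355, 376 and 365 in scramble and 344, 346 and 351 in reverse. All CR3 libraries lay above the 9 others, which held for 1 member and for 13.8% of all genes. It rose by 0.39 ± 0.102 against mCherry (limma adjusted p 0.00727), 0.32 against scramble (0.0198) and 0.39 against reverse (0.00626). Its mCherry replicate 3 was the lowest of all 12 libraries, and without it the difference from mCherry was 0.25 (0.0287). The call against scramble was lost when CR3 replicate 1, CR3 replicate 3, scramble replicate 1 or scramble replicate 3 was left out (adjusted p 0.0705, 0.0717, 0.0639 and 0.0511). MRPL55 shares no exon with another gene in the annotation and has no annotated pseudogene there.

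**Figure D2:**
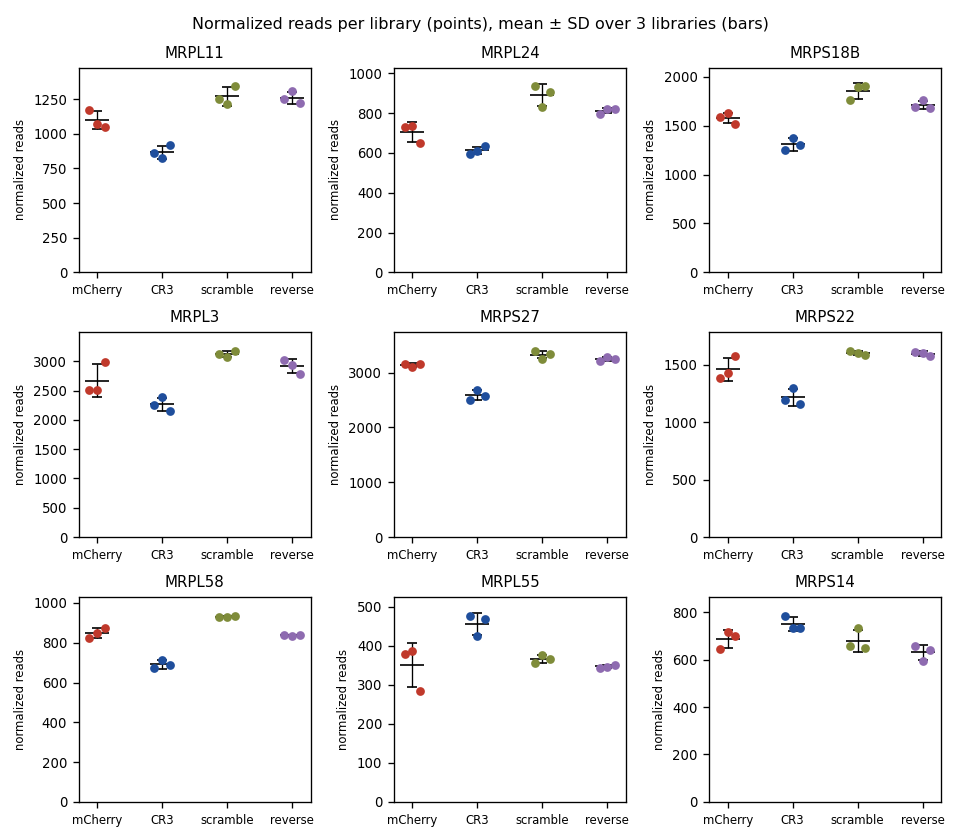
Normalized reads (vertical axis, from 0) of 9 members in each of the 12 libraries (points), with the mean and SD of 3 libraries per group (bars). In the 7 panels from MRPL11 to MRPL58 the CR3 points lie below all others, in MRPL55 they lie above, and in MRPS14 CR3 lies above reverse but overlaps scramble.

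Of the large-subunit proteins found only in mitochondrial ribosomes, 3 of 20 (15.0%) were lower against every group, near the 11.3% of all genes. MRPL58, a release factor that frees stalled ribosomes and is also built into the large subunit, was at 672, 713 and 689 in CR3 and at 824, 850 and 872 in mCherry. Scramble had 929, 930 and 935, and reverse 837, 836 and 840. The SDs of scramble (3.26) and reverse (1.90) were far below those of CR3 (20.8) and mCherry (23.8). The differences were -0.30 ± 0.053, -0.43 and -0.28 (limma adjusted p 0.000372, 5.36e-06 and 0.000548). MRPS30, which despite its name belongs to the large subunit, fell from 1817 ± 147 in mCherry to 1555 ± 78.0 in CR3, by 0.22 on the log2 scale. MRPL51 fell by 0.19, 0.30 and 0.19. Its exons overlap those of NCAPD2 on the other strand over 31.3% of their length, and which strand was counted is not stated here, so its values are uncertain.

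The small subunit held 6 of 24 members lower against every group, and 5 of these 6 belonged to the 9 tested proteins found only in mitochondria. These 5 include MRPS18B, which is classed there although it is a paralog of a bacterial protein, as described below. Of the 15 with a bacterial counterpart, MRPS2 alone (6.67%) was lower against every group, a share below that of all genes. Whether these shares differ was not tested. MRPS27, a pentatricopeptide repeat protein that binds RNA, was at 2504, 2690 and 2581 in CR3 and at 3162, 3107 and 3160 in mCherry. It was at 3395, 3257 and 3340 in scramble and at 3206, 3281 and 3256 in reverse. No CR3 library reached the lowest of the others. The log2 fold changes were -0.28, -0.36 and -0.33, each ± 0.041 (limma adjusted p 5.63e-05, 2.29e-06 and 8.91e-06).

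MRPS22 was at 1192, 1298 and 1159 in CR3, at 1383, 1425 and 1573 in mCherry, at 1618, 1598 and 1587 in scramble and at 1613, 1602 and 1573 in reverse. It fell by 0.26, 0.40 and 0.39 on the log2 scale (limma adjusted p 0.00182, 2.63e-05 and 3.49e-05). MRPS22 and MRPS34 are known as disease genes of combined respiratory chain deficiency. MRPS34, which is needed for a stable small subunit, was at 1193, 981 and 1091 in CR3 against 1264, 1294 and 1266 in mCherry, a log2 fold change of -0.23 ± 0.073 (limma adjusted p 0.0239). This call was lost without mCherry replicate 2 (0.0645), CR3 replicate 2 (0.122) or CR3 replicate 3 (0.0664).

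MRPS18A, MRPS18B and MRPS18C are paralogs of 1 bacterial protein that now sit at different places, MRPS18A in the large subunit and the other two in the small one. MRPS18B was at 1249, 1379 and 1303 in CR3, at 1586, 1628 and 1520 in mCherry, at 1764, 1895 and 1905 in scramble and at 1694, 1762 and 1681 in reverse. It fell by 0.27, 0.50 and 0.39 on the log2 scale, ± 0.052 (limma adjusted p 0.00082, 8.09e-07 and 1.87e-05). MRPS18C was called against scramble alone, with log2 fold changes of -0.22, -0.34 and -0.25 ± 0.099 in the 3 comparisons. Its call was lost without CR3 replicate 1 (-0.25, adjusted p 0.0682) or scramble replicate 3 (-0.26, 0.0706). MRPS18A was called in none of them (-0.08, -0.15 and -0.16 ± 0.062). The differences between the paralogs were not tested, and the exons of MRPS18A and MRPS18C overlap genes on the other strand over 47.0% and 40.2% of their length.

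MRPS14, a protein of the head of the small subunit, was called higher in CR3 than in reverse, with 785, 735 and 731 against 658, 594 and 640 normalized reads (log2 fold change 0.25 ± 0.07, limma adjusted p 0.00994). Without reverse replicate 2 the adjusted p was 0.0533. Against mCherry and scramble it stood at 0.13 and 0.14 and was not called. MRPS36, whose product is now assigned to a metabolic enzyme complex and not to the ribosome, was lower against scramble alone.

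Promoter sequences are shown for members lower against every group with and without a matched motif, and for MRPL55. RefSeq promoters (GRCh38.p14), 250 bases before to 50 after a start, were given for 69 of the 78 genes. Each line runs 5′ to 3′ on the strand of the gene, from 220 bases before to 25 after the start, with motif matches in capitals. The stretches are chr11:66438824-66439068 (minus strand), chr3:131502947-131503191 (minus), chr16:1773110-1773354 (minus), chr5:44808727-44808971 (plus) and chr1:228109275-228109519 (minus).
MRPL11: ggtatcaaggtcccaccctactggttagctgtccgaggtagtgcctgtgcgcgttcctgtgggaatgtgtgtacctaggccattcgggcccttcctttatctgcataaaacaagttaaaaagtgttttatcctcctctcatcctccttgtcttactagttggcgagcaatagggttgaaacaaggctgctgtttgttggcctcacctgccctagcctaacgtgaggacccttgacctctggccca
MRPL3: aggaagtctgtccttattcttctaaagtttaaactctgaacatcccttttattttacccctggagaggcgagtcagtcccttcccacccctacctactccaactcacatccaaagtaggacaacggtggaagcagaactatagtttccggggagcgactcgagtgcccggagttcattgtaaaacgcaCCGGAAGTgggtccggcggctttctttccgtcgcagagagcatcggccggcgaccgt
MRPS34: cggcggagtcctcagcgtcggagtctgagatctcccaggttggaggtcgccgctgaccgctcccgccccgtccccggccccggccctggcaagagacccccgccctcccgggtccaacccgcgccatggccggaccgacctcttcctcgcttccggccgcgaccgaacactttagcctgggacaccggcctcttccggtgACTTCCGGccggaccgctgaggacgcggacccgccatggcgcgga
MRPS30: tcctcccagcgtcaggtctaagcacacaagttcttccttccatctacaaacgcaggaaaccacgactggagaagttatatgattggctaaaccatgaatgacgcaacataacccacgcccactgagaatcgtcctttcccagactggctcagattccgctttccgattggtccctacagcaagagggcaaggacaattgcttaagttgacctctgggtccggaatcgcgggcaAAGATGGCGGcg
MRPL55: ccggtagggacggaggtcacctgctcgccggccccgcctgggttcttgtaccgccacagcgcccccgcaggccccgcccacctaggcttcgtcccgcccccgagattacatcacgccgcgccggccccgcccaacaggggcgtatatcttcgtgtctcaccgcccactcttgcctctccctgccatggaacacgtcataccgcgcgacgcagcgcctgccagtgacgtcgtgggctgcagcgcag
MRPL3 and MRPS34 hold CCGGAAGT, a site of ETS factors such as GABPA, MRPS34 on the opposite strand. MRPS30 holds the YY1 motif just after its start. MRPL11 and MRPL55 hold none of the motifs searched.

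Exact matches on both strands were counted for these motifs, each on its own, and for CACGTG, the E-box of MYC and MAX, and the palindromic NRF1 motif. The YY1 motif, whose letters are the capitals in the MRPS30 line, occurred in windows of 13 of 69 members (18.8%) and in 1.2% of all 35116 windows. In 10 of its 13 matches it began after the start on the strand of the gene. CCGGAAGT occurred in 12 members (17.4%, all windows 4.14%), CACGTG in 9 (13%, all windows 7.26%) and the NRF1 motif in 1 (1.45%, all windows 1.24%). Some members have several windows, so the shares of members and of windows are not on the same base. Of the 12 tested members with CCGGAAGT, 6 were lower in CR3 against every group (MRPL3, MRPL18, MRPL47, MRPL51, MRPS22 and MRPS34), beside 8 of 53 without it. Of the 13 with the YY1 motif, 2 were lower (MRPS18B and MRPS30), beside 12 of 52 without. Of the 8 tested with CACGTG, 1 was lower (MRPS2), beside 13 of 57 without, and the 1 with the NRF1 motif (MRPL17) was not called against every group. Over all genes tested, 11.3% were lower against every group. The share among all genes with each motif is not given, so these counts only sort the members. They are descriptions with no test, and a match is not shown to be bound.

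Summed over the genes of a subunit, CR3 stood lowest. The 49 large-subunit genes summed to 50011 ± 393 normalized reads in CR3 (SD, n = 3), 54049 ± 431 in mCherry, 58415 ± 1360 in scramble and 56010 ± 978 in reverse. The 24 small-subunit genes summed to 24512 ± 146, 26943 ± 205, 29111 ± 707 and 27990 ± 459 in the same order. The ratio of the large to the small sum was 2.04 in CR3 and 2.0 to 2.01 in the others. CR3 changed by -7.47%, -14.4% and -10.7% in the large subunit and by -9.02%, -15.8% and -12.4% in the small one, against mCherry, scramble and reverse. As a share of all reads, which uses no size factor, all 74 members took 0.398% to 0.407% in CR3, 0.41% to 0.415% in mCherry, 0.437% to 0.453% in scramble and 0.424% to 0.435% in reverse. The ranges of the 4 groups did not overlap on this scale, although CR3 and mCherry lay close together.

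**Figure D3:**
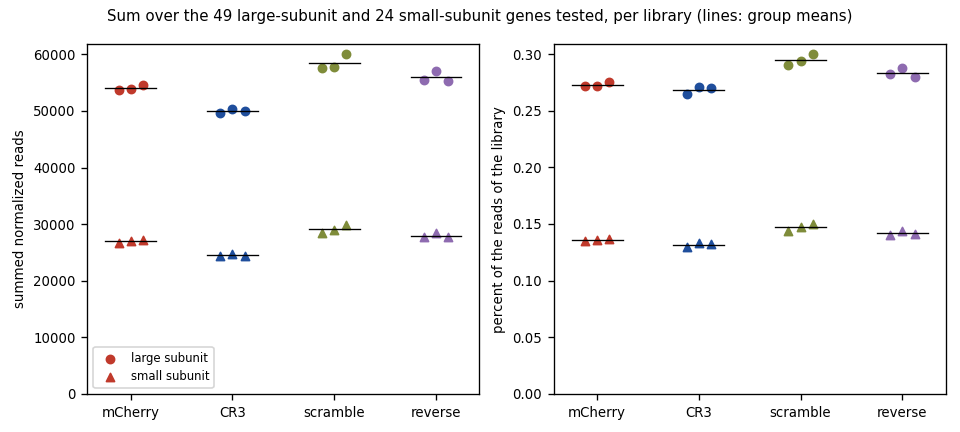
Sum over the 49 large-subunit (circles) and 24 small-subunit (triangles) genes in each library, as normalized reads (left) and as a percent of the reads of the library (right), with lines at group means. CR3 lies lowest on both scales and scramble highest, and on the right CR3 (0.265% to 0.271% for the large subunit) comes close to mCherry (0.272% to 0.275%).

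Scramble had the highest mean of the 4 groups in 55 of the 74 members, and CR3 the lowest in 58. No share of all genes with these orders is given, so they are not shown to be particular to the members. Against mCherry, 4 members were called higher in scramble, beside 0.763% of all genes, and 0 lower (all genes 0.77%). At an unadjusted p under 0.05, limma counted 23 higher (31.1%, all genes 7.54%) and 0 lower (all genes 7.05%), and limma voom called 5 higher (all genes 1.02%) and 0 lower. MRPL24 (0.33 ± 0.066, limma adjusted p 0.0145) and MRPL15 (0.28 ± 0.058, 0.0187), both of the large subunit, rose. So did MRPS18B (0.23 ± 0.052, 0.0321) and MRPS7 (0.22 ± 0.053, 0.044) of the small subunit, MRPS7 being an early binder of its RNA. MRPL15 was at 1128, 1189 and 1209 in scramble and at 972, 961 and 963 in mCherry, with CR3 at 845, 952 and 886. MRPS7 was at 2203, 2075 and 2320 in scramble and at 1918, 1963 and 1774 in mCherry. Its CR3 libraries, at 1815, 1814 and 1785, overlapped those of mCherry, and MRPS7 was called lower in CR3 against scramble alone (-0.28). The count of 4 was 0 without scramble replicate 3 (all genes 0.196%) or with the libraries of these 2 groups alone (0.215%). It was 8 without mCherry replicate 3 (2.12%).

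Between reverse and mCherry, and between reverse and scramble, limma called 0 members in either direction (all genes higher 0.248% and 0.287%, lower 0.378% and 0.176%), and limma voom also called 0. At an unadjusted p under 0.05, 11 members were higher in reverse than in mCherry (14.9%, all genes 4.77%) and 9 lower in reverse than in scramble (12.2%, all genes 3.17%). The median log2 fold change of the members was 0.05 against mCherry and -0.06 against scramble. These comparisons share libraries with those above.

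Levels per length spread widely. Per kilobase of exon, MRPL51 had the highest mean over 12 libraries with 1496 normalized reads, followed by MRPS34 (1159), MRPL14 (1105) and MRPL18 (1068). MRPL14 lies at the face between the subunits and was lower in CR3 against scramble alone (-0.17 ± 0.065, limma adjusted p 0.0482). That call was lost in 13 alternatives, among them leaving out CR3 replicate 2 (-0.11, 0.197) or scramble replicate 1 (-0.13, 0.187). At the low end of those tested stood MRPS24 with 12.6 and MRPL53 with 40.5 per kilobase. MRPS24 shares 23.2% of its exon length with the read-through gene URGCP-MRPS24, and MRPL53 45.2% with CCDC142, which leaves their values uncertain. Both had wide errors (± 0.228 and ± 0.193 on the log2 scale), and neither was called in any comparison. Libraries of a group agreed to a median coefficient of variation of 4.39% (scramble) to 5.48% (mCherry) over the 74 genes.

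**Figure D4:**
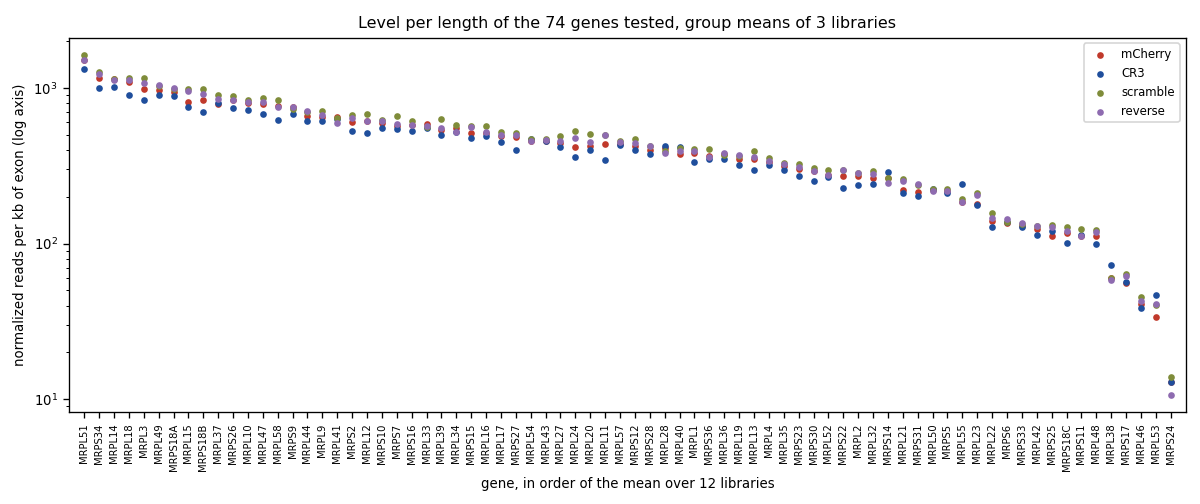
Normalized reads per kilobase of exon (vertical log axis) for the 74 genes tested, ordered by their mean over 12 libraries, with 1 point per group mean of 3 libraries. Levels run from 1496 (MRPL51) to 12.6 (MRPS24), and the points of a gene differ little beside this range.

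The members outside the tests were MRPL30, MRPS21 and MRPS35. MRPL30 had at most 4 reads in a library, and MRPS21, which has 8 annotated pseudogenes, is listed at 0 in all 12. For MRPS35, the decimal place of its 3 mCherry values was ambiguous. Its levels were 1255, 1350 and 1270 in CR3, 1584, 1516 and 1563 in scramble and 1486, 1468 and 1486 in reverse. If the mCherry values are read as 1316, 1396 and 1590, its log2 fold changes are -0.15, -0.27 and -0.20 (limma adjusted p 0.0837, 0.00221 and 0.0192). Of 69 pseudogene rows of 33 of the genes, MRPL45P2 (62.5) and MRPS31P5 (10.1) exceeded a mean of 10 normalized reads. Among the 21 tested members with no exon shared and no pseudogene, 7 (33.3%, all genes 11.3%) were lower against every group. Of the same 21, 1 (4.76%, all genes 11.0%) was higher.

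Other genes of mitochondrial protein synthesis were read from lists beside the members, and their counts stand beside the 11.3% of all genes lower against every group. Of 5 mitoribosomal proteins with other names, DAP3 (2981 in mCherry, 2586 in CR3) and PTCD3 (2715 and 2366) were lower against every group, while GADD45GIP1 (-0.14 against mCherry) was not called there. Of 14 translation factors, 4 (28.6%) were lower against every group. The elongation factor TUFM went from 6514 to 5288, the ribosome recycling factor MRRF from 890.3 to 693.8 and the rescue factor MTRFR from 483.7 to 385.6. Of 27 assembly and rRNA factors, 4 (14.8%, near all genes) were lower, among them C1QBP (5559 to 4360) and MTERF3 (737.5 to 587.2). The GTPase MTG1, which acts in assembly of the large subunit, was higher (68.2 to 119.3, log2 fold changes 0.81, 0.68 and 0.56), and its call against reverse was lost without CR3 replicate 1 or 3 or reverse replicate 1 or 3 (adjusted p 0.051 to 0.0813).

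Of 17 mitochondrial aminoacyl-tRNA synthetases, which charge tRNAs for this ribosome, 4 (23.5%) were lower against every group, EARS2, HARS2, IARS2 and CARS2. AARS2 and TARS2 were higher against mCherry (0.23 and 0.22, limma adjusted p 0.0152 and 0.0365), and TARS2 also against reverse (0.27, 0.00927). Of 14 genes for transcription and upkeep of mitochondrial RNA, 4 (28.6%) were lower, among them the transcription factor TFB2M (462.8 to 363.3) and the mRNA-binding partners LRPPRC (7706 to 6398) and SLIRP (1053 to 848). Of 23 genes of protein import and folding, 9 (39.1%) were lower. HSPD1, the matrix chaperonin, went from 20630 to 14740, its partner HSPE1 from 2026 to 1514 and HSPA9 from 12180 to 9737. Among 9 regulators of nuclear genes for mitochondria, MYC alone (11.1%) was lower against every group (1900 to 1344). NRF1 and GABPB1, at -0.19 and -0.20 against mCherry, were not called there (limma adjusted p 0.0963 and 0.0805). Both were lower against scramble (-0.35 and -0.29, 0.0025 and 0.00995) and reverse (-0.33 and -0.26, 0.0048 and 0.023).

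The 13 protein-coding genes of mitochondrial DNA, whose mRNAs this ribosome translates, had another order of groups. Against scramble, 12 were called higher in CR3 (all genes 19.1%), and against reverse 10 (all genes 17.0%). Against mCherry, limma called 0 (all genes 14.5% lower and 14.1% higher), with a median of -0.09. There were also 0 at an unadjusted p under 0.05 and by limma voom. Scramble was called lower than mCherry in 12 of 13 (all genes 0.77%), with a median of -0.59. Reverse was called lower than mCherry in 5 of 13 (all genes 0.378%), with a median of -0.36. MT-CO3, a subunit of cytochrome oxidase, averaged 44920 in mCherry, 40560 in CR3, 30280 in scramble and 36530 in reverse, and MT-ATP6, of ATP synthase, 38480, 34380, 24810 and 28650. Scramble, in which most members had their highest mean, thus had the lowest means of both genes.

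**Figure D5:**
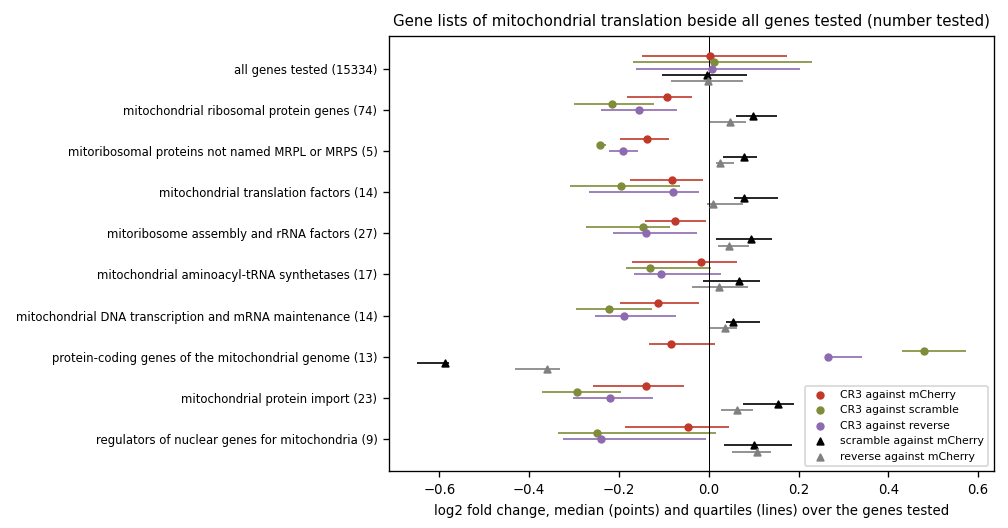
Median (points) and quartiles (lines) of the log2 fold change over all genes tested, over the 74 members and over 8 lists, with the number tested in brackets, for CR3 against each group (circles) and scramble or reverse against mCherry (triangles). The members' circles lie at -0.09, -0.22 and -0.16, and the genes of the mitochondrial genome lie at 0.48 in CR3 against scramble and -0.59 in scramble against mCherry.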

How the data were processed

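Poly(A) RNA of 12 HCT116 libraries was measured, and the titles gave groups and replicate numbers. The submitters' processing notes name DESeq2, edgeR, FastQC, featureCounts, GATK, MultiQC, Salmon, STAR and Trim Galore and the GRCh38 build. Their versions, the annotation and the strand setting are not given in the sources used. The deposited values are read counts divided by a size factor per library, a unit found from the values, and the decimal mark had been lost from most of them.

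Counts were rebuilt first. All 265152 non-zero cells were whole multiples of the value of 1 read at some power of 10 (tolerance 1e-07). The power was chosen per gene by likelihood with the group labels. In 2229 cells (0.841%) another power came within a likelihood ratio of 20, and these genes were not tested. Of 18138 cells that kept their mark, 98.38% were read correctly with it hidden. These cells hold values below 1, which are single reads, so they do not check cells of many reads such as those of tested members. Of the 924 cells of members, 3 were ambiguous, and 0 changed when the group labels were not used.

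Genes with at least 10 reads in at least 3 libraries numbered 16161, and 15334 of them were tested after 827 ambiguous ones were left out. The test was limma 3.58.1 (R 4.3.3) on log2(normalized reads + 1) with a mean-variance trend, 4 group means and all 12 libraries, two-sided, adjusted by Benjamini-Hochberg within a comparison. It was also run on simulated data at a spread set for the simulation, where only part of the smaller simulated increases were called. Within groups, libraries spread beyond counting noise (chi-square per degree of freedom 2.71 to 9.61), and each counted as 1 sample. Rebuilding used Python 3.11.15 with numpy 2.4.6 and pandas 2.3.3, and figures matplotlib 3.10.9.

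The members, lists and motifs were chosen with earlier results of these data known. Members named with values are up to 12 lower and 8 higher in all 3 CR3 comparisons by smallest absolute log2 fold change, up to 4 called in each direction of a comparison, the 4 highest and 4 lowest levels per length, the MRPS18 paralogs and members not tested, plus 3 or fewer genes of each list, by p for CR3 against mCherry. Other members and list genes are named, after their values were seen, as parts of counts. Of the genes on the lists, MRM1, RCC1L, MRPP3 and NEFL were not matched. The alternatives tried were the pseudocount, the filter, the scaling, limma voom, the libraries in the fit, ambiguous genes, decimal powers chosen without group labels, a replicate block and each library left out.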

Additional observations from a re-analysis of the deposited data

How the results depend on the processing

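The direction held in all 52 called differences of named members under every alternative run. Calls lost were 0 with a pseudocount of 5 or at least 50 reads in at least 3 libraries, 1 with a pseudocount of 0.5, limma voom or ambiguous genes kept, 10 with only the libraries of the groups compared and 12 with library size alone. Of 87 calls of list genes called against every group, 0 to 17 were lost, the most with library size alone, and the direction held. With library size alone, members lower and higher in CR3 numbered 6 and 5 against mCherry (all genes 8.16% and 23.2%). Against scramble they numbered 27 and 4 (11.6% and 29.2%), and against reverse 14 and 5 (10.0% and 26.3%). Against every group they numbered 6 and 3, and no share of all genes is given to read these beside. The summed change in CR3 against mCherry, scramble and reverse was then -1.59%, -8.76% and -5.14% for the large subunit and -3.24%, -10.3% and -6.97% for the small one. By the upper quartile these were -5.6%, -12.1% and -8.93%, and -7.19%, -13.6% and -10.7%, with 2 members higher against mCherry (all genes 16.3%). With only the libraries of the groups compared, 9 members (12.2%) were lower against mCherry, near the 10.1% of all genes. Lower against every group were 9, with no share of all genes given, and 0 were higher in scramble than in mCherry (all genes 0.215%). Without the filter, 2 were higher there (all genes 0.331%). The causes were not tested.

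With each library left out in turn, members lower in CR3 ranged from 10 to 17 against mCherry, 38 to 48 against scramble, 22 to 38 against reverse and 10 to 17 against every group. Members higher ranged from 1 to 2, 0 to 2, 1 to 4 and 0 to 2. Scramble against mCherry gave 0 to 8 higher and reverse against mCherry 0 to 1. The low value of 10 came without CR3 replicate 3. Summed changes ranged from -7.83% to -7.04%, -15.0% to -13.2% and -11.2% to -9.8% (large) and from -9.36% to -8.67%, -16.7% to -14.7% and -12.9% to -11.6% (small).

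Deviations of same-numbered libraries correlated between -0.143 and 0.068 over 18 pairs of libraries. The labels do not say what a replicate number shares, and these values cannot show whether same-numbered libraries were prepared together. A replicate block gave 13, 43 and 30 members lower against mCherry, scramble and reverse (all genes 13.2%, 17.6% and 15.4%). The 13 against mCherry were 17.6% of members. The block gave 13 lower against every group, with no share of all genes given. It gave 3 higher in scramble than in mCherry (all genes 0.32%), and 4 of the 52 calls were lost. Changes under about 0.2 on the log2 scale lie near what 3 libraries a group can call, since the errors of most named members are 0.041 to 0.076.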
